A study of Homo sapiens with 3 samples.

Results

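The proteins that copy, transcribe and translate mitochondrial DNA are themselves encoded in the nucleus, and 10 of their genes were followed here in ribosome footprints: TFAM, POLRMT, TFB2M, TWNK, POLG, LRPPRC, SLIRP, TACO1, TUFM and GFM1. They were listed by name for their role, with earlier results of these data known, and make up 10 of the 63241 genes in the table. All 10 were among the 19820 genes with enough counts to be tested. The data are Ribo-seq, the sequencing of mRNA fragments that ribosomes protect from nuclease, in HEK293T cells that expressed wild-type p53 (WT) or p53 with the hotspot change G245S or R273H. HEK293T is a human embryonic kidney line, and all 3 groups carry its viral oncoprotein, the large T antigen of SV40, which binds p53. According to the methods, each construct was delivered by lentivirus under puromycin selection, and single-cell cloning is not described. The labels call the cells stable in some fields and transiently transfected in others, and the treatment field of both mutants names the wild-type construct, so the titles were used to assign groups. Every culture was exposed to cycloheximide for 2 min (100 μg/mL in the wash buffer). Lysates were treated with micrococcal nuclease (3 U per μg RNA, 30 min), and fragments were recovered from monosomes. Each group comprised 3 dishes (n = 3), which were joined into a single pool at reverse transcription, so an effect of the construct and an effect of the pool cannot be told apart. The spread between dishes lacks whatever arose after pooling.

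Mitochondrial DNA encodes a small set of respiratory chain proteins together with the rRNAs and tRNAs needed to make them, and everything else in this system is imported. A replisome built on the polymerase POLG and the helicase TWNK copies the genome, while the polymerase POLRMT, with TFB2M for promoter opening and TFAM for DNA packaging and promoter bending, transcribes it. LRPPRC and SLIRP form a complex that stabilizes mitochondrial mRNAs, TACO1 promotes translation of the mitochondrial COX1 mRNA, and TUFM and GFM1 are the elongation factors of the mitochondrial ribosome. Footprints on these mRNAs measure their occupancy by cytosolic ribosomes. Without mRNA levels, which were not used here, a difference in mRNA amount and a difference in translation cannot be told apart, and in a bulk culture neither can a difference in the makeup of the cells.

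Promoters of such genes are known for binding sites of NRF1 and of ETS family factors such as NRF2, and the stretches that hold those letters are shown to place the genes beside one another. RefSeq promoter windows (GRCh38.p14, 250 bases before to 50 after the start of transcription) were found for 9 of the 10 genes, with a second window for SLIRP. Both strands were searched. The NRF1 core GCGCANGCG, which overlaps its own reverse complement, was present in 7.52% of all 35116 windows and in those of 3 member genes. Windows of 30 bases follow, 5′ to 3′ on the strand of the gene, with the match in capitals.
POLRMT (chr19:633537-633566, minus strand): cgcgggcgcatGCGCAGGCGcgggccggtg
TFB2M (chr1:246566259-246566288, minus strand): gctccgctgttCGCATGCGCaggctctagt
TFAM (chr10:58385337-58385366, plus strand): acgctctcccgCGCCTGCGCcaattccgcc
The match starts at position -18 from the RefSeq start in POLRMT, -16 in TFB2M and -62 in TFAM, and POLRMT held further matches at -23 and -24 that overlap the one shown. The ETS core CCGGAAG was present in 10.3% of all windows and in those of 4 member genes.
TUFM (chr16:28846339-28846368, minus strand): ctctaacttccgCCGGAAGtgccttccagc
GFM1 (chr3:158644507-158644536, plus strand): gcgtcctttgccCCGGAAGtgctcttacaa
POLRMT (chr19:633613-633642, minus strand): cctgggagtctaCTTCCGGctggggtttcc
SLIRP (chr14:77708015-77708044, plus strand): ataccctctgatCCGGAAGcagattctctc
It starts at position -8 in both TUFM and GFM1. Outside these matches, the YY1 core AAGATGGC was present in 2.89% of all windows and in those of 1 member gene, SLIRP. The windows of LRPPRC, POLG and TACO1 held none of the 3 motifs. A match describes letters in the window and was not tested as a binding site.

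The 9 libraries held 18.7 to 24.6 M expected counts. Markers known for HEK293T were found in every library. VIM was highest at 883 to 983 CPM (counts scaled to library size), and KRT18 had 107 to 122 CPM. PAX2 (4.99 to 8.12 CPM) and LHX1 (3.04 to 6.34 CPM) were lowest. In contrast, 8 markers of other cell types, from PTPRC of leukocytes to ALB of hepatocytes, lay between 0 and 0.475 CPM, with CD3E and HBB at 0 throughout. The p53 targets CDKN1A (log2 fold change -1.92 in G245S and -2.14 in R273H) and MDM2 (-3.48 and -3.49) fell in both mutants. Libraries also differed in composition. The Spearman correlation, across genes, of a library's deviation from the mean with coding length was -0.18 to -0.14 in WT, -0.01 to 0.12 in G245S and 0.14 to 0.19 in R273H. With GC content it was -0.18 to 0.26 in WT, -0.18 to 0.34 in G245S and -0.42 to -0.14 in R273H, and dish 3 gave the minimum of every group. Members differ widely in length, from 327 coding bases (SLIRP) to 4182 (LRPPRC). Values of members with the trend in length and GC content removed are given below where they change a call, and for some other differences.

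Relative to WT, footprints on the genes for the mitochondrial RNA polymerase, its initiation factor, the helicase, the mRNA-stabilizing protein LRPPRC and the elongation factor TUFM rose in both mutants, by 12.3% to 30.2%. TFAM was not among them, and its values in the mutants were slightly below those in WT. The data hold no cells without an added p53 construct. A rise with mutant p53 and a fall with WT p53 therefore cannot be told apart, and directions here are relative to WT. In G245S, 7 of the 10 genes were called higher at an adjusted p under 0.05 (edgeR quasi-likelihood test, Benjamini-Hochberg over all tested genes), where 12.6% of all tested genes were called higher and 24.7% in either direction. In R273H the count was 6 of 10, against 14.2% of all genes higher and 28.8% in either direction. When only genes averaging 100 or more counts were considered, as all members do, these background shares were 17.3% and 18.5%. None of the 10 was called lower in either mutant by DESeq2, limma-voom or edgeR with group as the only term. The same held at an unadjusted p under 0.05. The median log2 fold change over the 10 genes was 0.19 in G245S and 0.16 in R273H, whereas over all tested genes it was -0.0007 and -0.0024. All 3 mutant dishes exceeded all 3 WT dishes for 8 genes in G245S and 7 in R273H, an order seen in 18.6% and 20.3% of all genes. The same WT dishes serve both comparisons, so the mutants are not independent of each other. The plot of CPM by dish shows each value, and the plot of log2 fold changes gives their intervals.

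**Figure D1:**
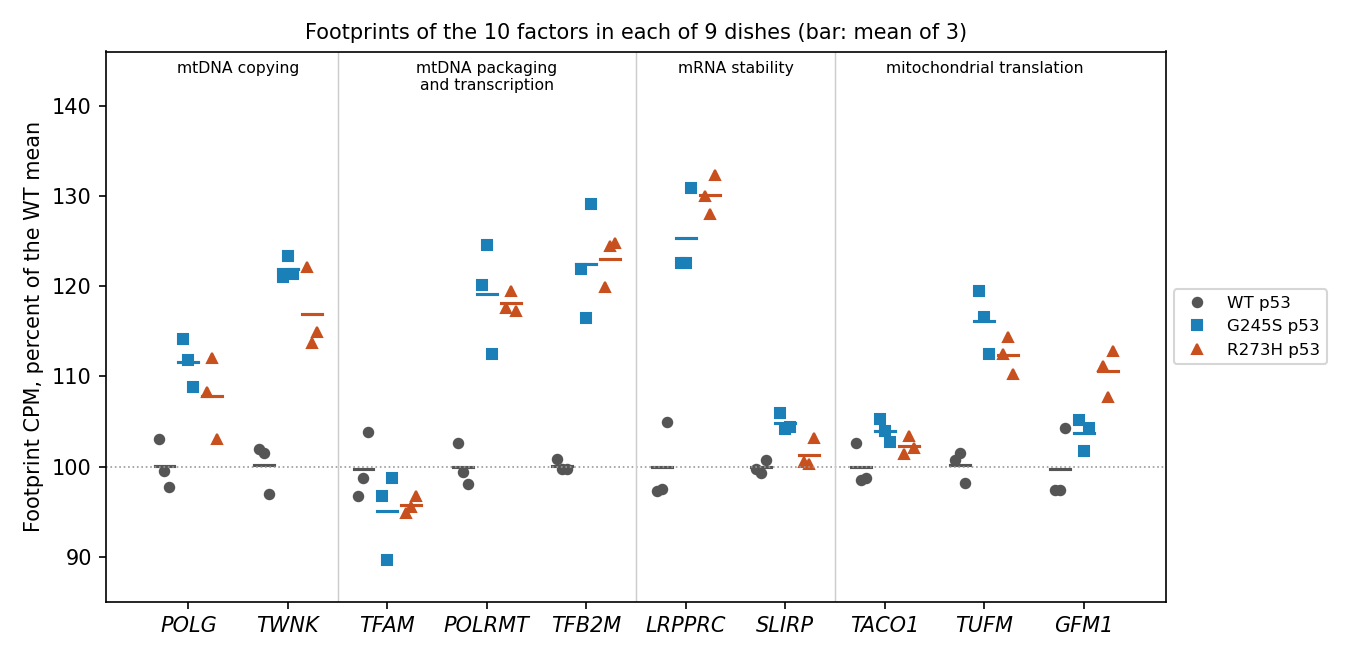
Footprint CPM of the 10 genes in each of the 9 dishes, as a percent of the WT mean of that gene (points, dishes; bars, mean of 3 dishes; colour and marker, p53 construct). The LRPPRC means of both mutants lie farthest above WT, and the TFAM dishes of R273H lie at or just below the lowest WT dish.

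**Figure D2:**
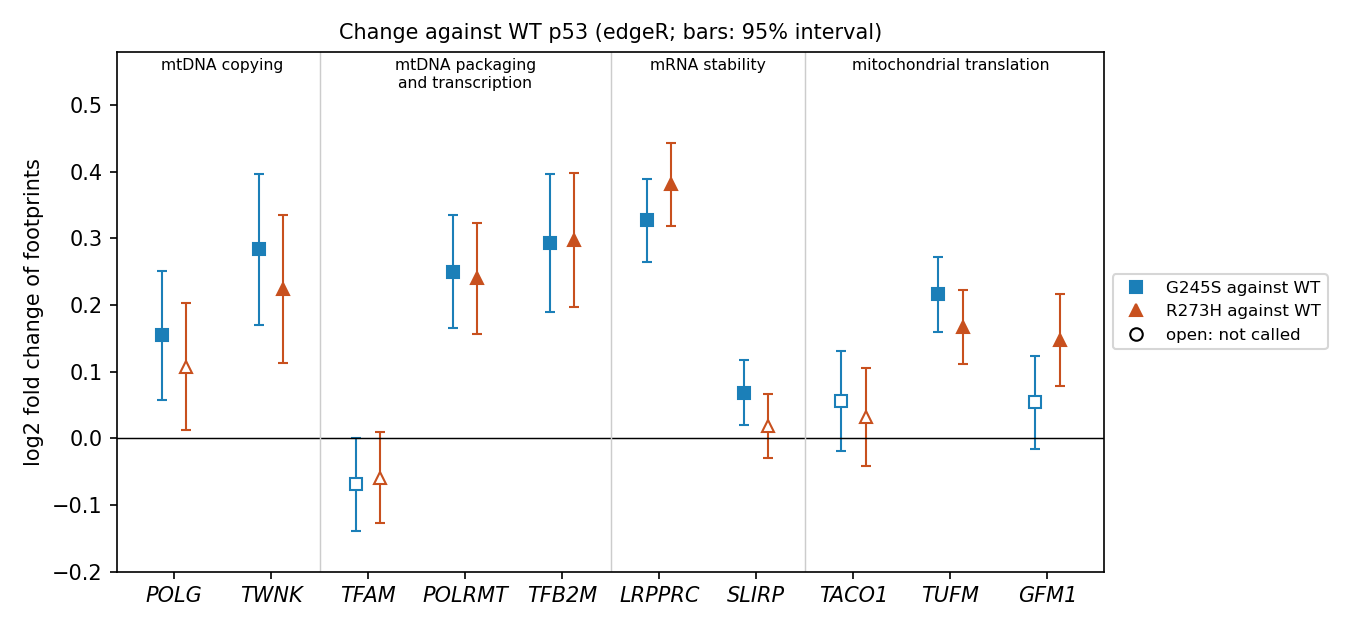
Log2 fold change of footprints for each gene in G245S and R273H against WT (edgeR; bars, 95% interval; open points, not called). LRPPRC has the highest estimates, 0.33 and 0.38, and the intervals of TFAM and TACO1 span 0 in both mutants.

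Of the transcription machinery, POLRMT and TFB2M rose in both mutants and TFAM was called in neither. POLRMT, the single-subunit RNA polymerase of mitochondria (chromosome 19, positions 617221 to 633537, minus strand, 21 coding exons), had 63.1, 61.1 and 60.3 CPM in the WT dishes, 73.9, 76.6 and 69.2 CPM in G245S and 72.3, 73.5 and 72.1 CPM in R273H. Every mutant dish was above every WT dish. POLRMT thus rose by 18.9% in G245S (log2 fold change 0.25, SE 0.0415, adjusted p = 4.1e-05) and by 18.1% in R273H (0.24, SE 0.0406, adjusted p = 4.4e-05). These log2 values were 0.22 and 0.26 with the trend in length and GC content removed. TFB2M, the factor that melts the promoter for POLRMT (chromosome 1, positions 246540561 to 246566261, minus strand, 8 coding exons), counted 35.0, 34.6 and 34.6 CPM in WT, 42.3, 40.4 and 44.8 CPM in G245S and 41.6, 43.2 and 43.3 CPM in R273H. Again the groups did not overlap, and the WT dishes lay within 1 CPM of each other. TFB2M rose by 22.5% in G245S (0.29 on the log2 scale, SE 0.0504, adjusted p = 6.5e-05) and by 22.9% in R273H (0.30, SE 0.0491, adjusted p = 3.1e-05). TFAM, which coats the genome and bends promoters (chromosome 10, positions 58385345 to 58399220, plus strand, 7 coding exons), had 150, 153 and 161 CPM in WT, 150, 139 and 153 CPM in G245S and 147, 148 and 150 CPM in R273H. TFAM dishes of G245S overlapped those of WT, whereas the R273H dishes lay just below WT, an order found in 20.9% of all genes. The highest R273H dish and the lowest WT dish both round to 150 CPM. Its log2 fold change of -0.069 in G245S (95% interval -0.1387 to 0.0009, adjusted p = 0.146) and -0.059 in R273H (-0.1271 to 0.0098, adjusted p = 0.2) did not pass the test. With the trend in length and GC content removed the G245S value was -0.021 and the R273H value -0.051 (adjusted p = 0.137). With dish number as a block in edgeR, TFAM was called lower in G245S (-0.070, adjusted p = 0.0492) and not in R273H (adjusted p = 0.0866). All 3 of these genes hold the NRF1 core in the windows shown above.

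Both of the 10 genes that act in copying mitochondrial DNA, TWNK and POLG, were higher in G245S. TWNK, the helicase that unwinds mitochondrial DNA ahead of the polymerase (chromosome 10, positions 100987367 to 100994403, plus strand, 5 coding exons), had 26.7, 26.6 and 25.4 CPM in WT, 31.7, 32.3 and 31.8 CPM in G245S and 32.0, 29.8 and 30.1 CPM in R273H. It rose by 21.7% (log2 fold change 0.28 ± 0.0552, adjusted p = 0.00029) and 16.8% (0.22 ± 0.054, adjusted p = 0.00219). TWNK overlaps MRPL43 on the opposite strand, and how strand was counted is not given in the sources used here. MRPL43 carried 292% of the TWNK count, and its log2 fold change of -0.037 in G245S (adjusted p = 0.515), with -0.096 in R273H (adjusted p = 0.0464), did not share the direction of TWNK. POLG, the catalytic subunit of the DNA polymerase (chromosome 15, positions 89305198 to 89334861, minus strand, 22 coding exons), had 44.6, 43.1 and 42.3 CPM in WT, 49.4, 48.4 and 47.1 CPM in G245S and 46.9, 48.5 and 44.6 CPM in R273H. The G245S dishes were clear of WT, and the R273H dishes lay just above WT. The lowest R273H dish and the highest WT dish both round to 44.6 CPM. POLG rose in G245S (0.15 ± 0.0473, adjusted p = 0.0164) and did not pass the test in R273H (0.11, 95% interval 0.0129 to 0.2026, adjusted p = 0.0821). Both POLG calls were sensitive. The G245S call was lost with DESeq2 and when WT dish 2, WT dish 3 or G245S dish 1 was left out, and with the length and GC trend removed the R273H value of 0.11 was called (adjusted p = 0.031), as it was with upper-quartile scaling, with dish number as a block or without R273H dish 3. POLG overlaps POLGARF, an alternative reading frame on the same mRNA, whose counts were 17% of those of POLG and whose footprints differed from WT by -0.12 on the log2 scale in G245S (adjusted p = 0.524) and by -0.046 in R273H (adjusted p = 0.811). On the opposite strand it overlaps FANCI, which carried 420% of the POLG count and stood at 0.073 in G245S (adjusted p = 0.099) and at 0.12 in R273H (log2 scale, adjusted p = 0.00349), and its part in the POLG values was not tested.

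LRPPRC rose in both mutants, whereas SLIRP, with which it works as a complex on mitochondrial mRNAs, was called in G245S and not in R273H. LRPPRC, a large pentatricopeptide repeat protein (chromosome 2, positions 43886224 to 43996226, minus strand, 38 coding exons), had 431, 432 and 465 CPM in WT, 543, 543 and 580 CPM in G245S and 576, 567 and 586 CPM in R273H. All mutant dishes stood well above WT. Its rise of 25.5% in G245S (log2 fold change 0.33, SE 0.03, adjusted p = 1e-08) and of 30.2% in R273H (0.38, SE 0.0298, adjusted p = 6e-10) was the highest of the 10 genes in either mutant. The R273H value shrank to 0.3218 with the trend in length and GC content removed (adjusted p = 1.65e-13), and the G245S value was then 0.3245 (adjusted p = 1.82e-13). SLIRP, the small RNA-binding partner that protects LRPPRC from degradation (chromosome 14, positions 77708071 to 77761104, plus strand, 4 coding exons), had 407, 405 and 411 CPM in WT, 432, 425 and 426 CPM in G245S and 410, 409 and 421 CPM in R273H. Its dishes overlapped between R273H and WT but not between G245S and WT. SLIRP rose by 4.89% in G245S (log2 fold change 0.069 ± 0.0236, adjusted p = 0.0319), a call lost when WT dish 1, WT dish 2, G245S dish 1 or G245S dish 2 was left out, without a filter on low counts, and with only the 6 libraries compared. In R273H the value was 0.019 (95% interval -0.0294 to 0.0666, adjusted p = 0.603). With the trend in length and GC content removed, SLIRP was called in both mutants, at 0.16 for G245S (adjusted p = 1.99e-07) and 0.096 for R273H (adjusted p = 0.000274). SLIRP overlaps SNW1 on the opposite strand, which carried 60% of its count and fell in both mutants (-0.12, adjusted p = 0.00167, and -0.11, adjusted p = 0.00282).

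The count ratio of LRPPRC to SLIRP, chosen from known biology with earlier results of these data known, puts both genes into a single value per dish. It was 1.06, 1.06 and 1.13 in WT, 1.25, 1.28 and 1.36 in G245S and 1.40, 1.39 and 1.39 in R273H. The groups did not overlap. The mean ratio was 1.2-fold that of WT in G245S (log2 difference 0.26) and 1.29-fold in R273H (0.36), each with a two-sided exact permutation p = 0.1, the smallest that 3 against 3 dishes allow. These differences shrank to 0.17 and 0.23 on the log2 scale with the trend in length and GC content removed. For comparison, TUFM and its nucleotide exchange factor TSFM had a ratio of 2.15 ± 0.013 (SD, n = 3) in WT, 2.22 ± 0.0261 in G245S and 2.20 ± 0.0305 in R273H. Here, too, the mutant dishes were all above WT (exact permutation p = 0.1), but by a log2 difference of only 0.042 and 0.031, which became 0.0042 and 0.013 with the trend removed. The plot of the ratios gives every dish.

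**Figure D3:**
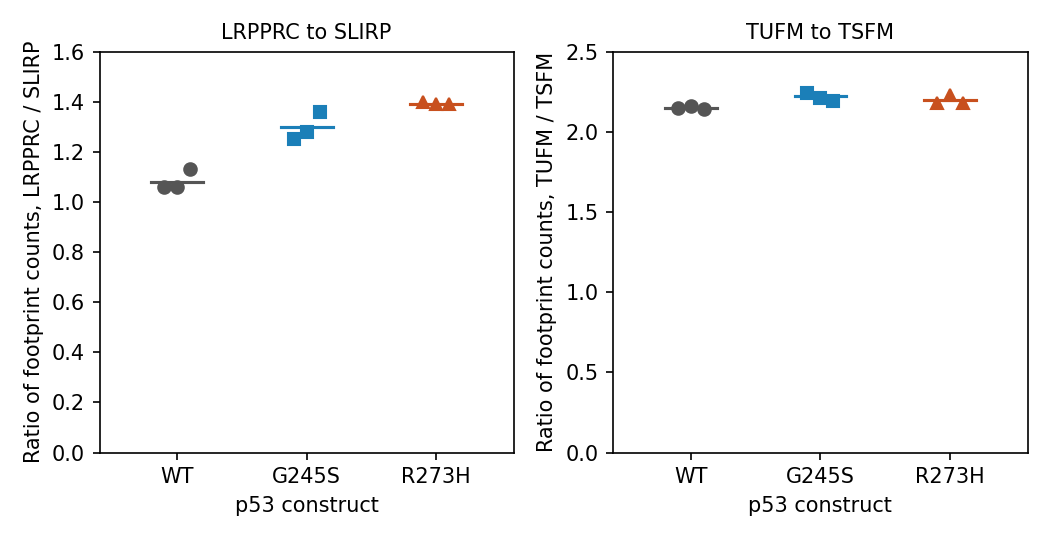
Ratio of footprint counts of LRPPRC to SLIRP (left) and of TUFM to TSFM (right) in each dish, by p53 construct (points, dishes; bars, mean). The LRPPRC to SLIRP ratio runs from 1.06 to 1.13 in WT and from 1.25 to 1.40 in the mutants, whereas the TUFM to TSFM ratio stays between 2.14 and 2.24.

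Of the genes that act on the mitochondrial ribosome, TUFM rose in both mutants, GFM1 was called in R273H and TACO1 in neither. TUFM, which brings aminoacyl-tRNA to the ribosome (chromosome 16, positions 28842411 to 28846348, minus strand, 10 coding exons), had 274, 276 and 267 CPM in WT, 325, 317 and 306 CPM in G245S and 306, 311 and 300 CPM in R273H. No mutant dish fell within the WT range. TUFM rose by 16.1% in G245S (log2 fold change 0.22, SE 0.0272, adjusted p = 6.2e-07) and 12.3% in R273H (0.17, SE 0.0269, adjusted p = 2.2e-05). Its pseudogene TUFMP1 carried 0.862% of its count. GFM1, the translocase that moves the ribosome along the mRNA (chromosome 3, positions 158644527 to 158695581, plus strand, 18 coding exons), had 114, 114 and 122 CPM in WT, 123, 119 and 122 CPM in G245S and 130, 126 and 132 CPM in R273H. G245S overlapped WT and R273H did not. GFM1 rose by 10.8% in R273H (0.15 ± 0.0333, adjusted p = 0.00118), a value of 0.10 with the trend removed (adjusted p = 0.00702), and stood at 0.054 in G245S (95% interval -0.0158 to 0.1243, adjusted p = 0.268). LXN, which overlaps GFM1 on the opposite strand with 27.2% of its count, fell in G245S (-0.22, adjusted p = 0.00437) and stood at -0.12 in R273H (adjusted p = 0.0837).

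TACO1, the activator of COX1 translation (chromosome 17, positions 63600882 to 63608365, plus strand, 5 coding exons), had 75.8, 72.8 and 73.0 CPM in WT, 77.8, 76.8 and 75.9 CPM in G245S and 74.9, 76.4 and 75.4 CPM in R273H. The ranges of G245S and WT were separate by a narrow margin, and that of R273H overlapped WT. Neither log2 fold change passed the test (0.056, 95% interval -0.0191 to 0.1311, adjusted p = 0.287, and 0.033, -0.0409 to 0.1059, adjusted p = 0.545). With the trend removed both did, at 0.086 (adjusted p = 0.0439) and 0.087 (adjusted p = 0.0342). An unnamed gene on the same strand, ENSG00000288894, overlaps TACO1 with 42% of its count, and stood at -0.042 in G245S (adjusted p = 0.632) and at 0.086 in R273H (adjusted p = 0.232). The mitochondrial mRNA that TACO1 acts on, MT-CO1, had 669 ± 7.55 CPM (SD, n = 3) in WT, 642 ± 11.2 in G245S and 596 ± 10.1 in R273H. MT-CO1 fell in R273H (-0.17, adjusted p = 2.2e-06) and had a log2 fold change of -0.059 in G245S (adjusted p = 0.0631). Of the 13 mitochondrially encoded protein genes, 4 were called lower in G245S (median -0.062) and 10 in R273H (median -0.11), against 12.1% and 14.6% of all genes. Cycloheximide acts on cytosolic ribosomes and not on those of mitochondria, and whether these fragments came from mitochondrial ribosomes was not tested.

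Between the mutants, none of the 10 genes was called by edgeR, where 2.59% of all genes were (1.86% higher in G245S and 0.732% lower). DESeq2 and limma-voom also called 0. At an unadjusted p under 0.05 edgeR gave 1 gene higher in G245S, SLIRP, and 1 lower, GFM1. These were also the genes whose dishes did not overlap between mutants. The order with all G245S dishes above R273H was seen in 11.6% of all genes and the opposite order in 9.86%. GFM1 differed by -0.093 on the log2 scale (95% interval -0.1611 to -0.0257, adjusted p = 0.141) and SLIRP by 0.05 (0.0025 to 0.0982, adjusted p = 0.287). For LRPPRC the difference was -0.053 (-0.1142 to 0.0073, adjusted p = 0.395), and it was called, at -0.073 (adjusted p = 0.0266), when the third dish of every group was left out. The remaining 7 genes had differences between -0.01 and 0.059. POLG, SLIRP and GFM1, which were called against WT in 1 mutant each, were thus not called between the mutants in this fit, and GFM1 and SLIRP each were in an alternative with dish number as a term.

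Footprint density, as CPM per kb of coding sequence of the canonical transcript, allows levels to be set roughly side by side between genes. The regions counted and the strand setting are not given, so coding length may not match what was counted. For SLIRP, the overlap with SNW1 (60% of its count) adds to this. SLIRP stood first in WT at 1248 ± 9.75 CPM per kb (SD, n = 3), followed by TFAM (210 ± 7.56), TUFM (199 ± 3.45) and LRPPRC (106 ± 4.71). TACO1 (82.9) and GFM1 (51.9) came next, and TFB2M (29.2), POLRMT (16.7), TWNK (12.8) and POLG (11.7) were lowest on this scale. SLIRP had 107-fold the density of POLG. No neighbours in this order overlapped in their WT dishes. TFAM and TUFM changed places, since TFAM was ahead in WT (204 to 218 against 195 to 202 CPM per kb) and TUFM in G245S (TFAM 189 to 207, TUFM 224 to 238) and in R273H (TFAM 200 to 203, TUFM 220 to 228). LRPPRC and SLIRP, which are known to bind each other, differed in density, with SLIRP at 11.8 ± 0.427 times LRPPRC in WT, 9.87 ± 0.419 in G245S and 9.17 ± 0.0591 in R273H. The longest annotated coding sequence in place of the canonical one lowered SLIRP to 1097 CPM per kb and left the ranks as they were. The plot of densities shows all groups.

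**Figure D4:**
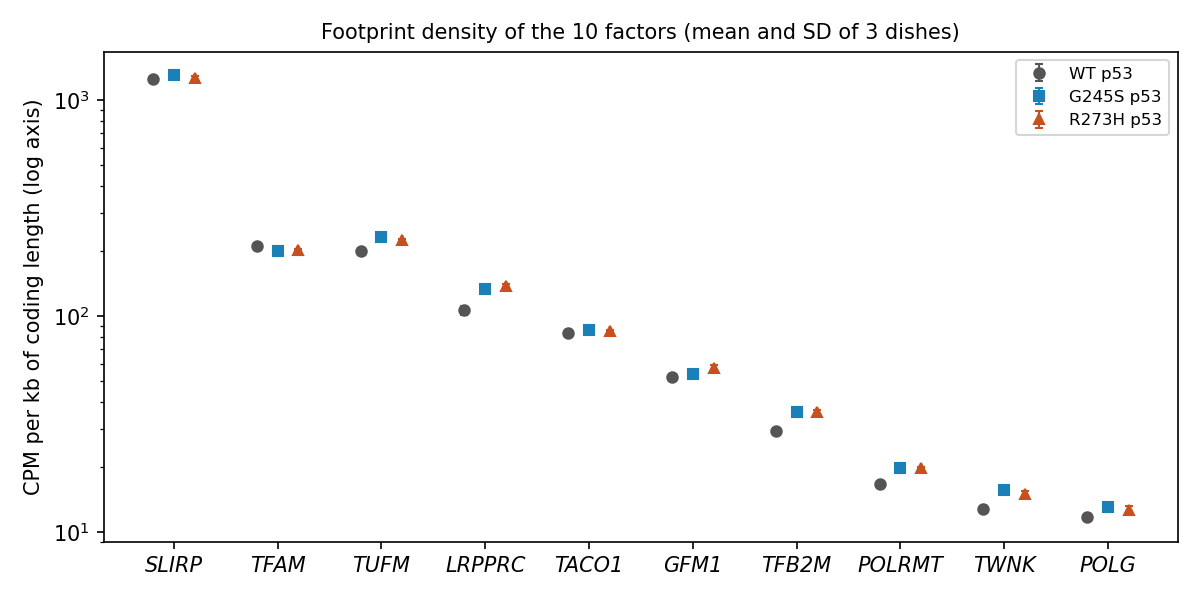
Footprint density of the 10 genes in CPM per kb of coding length on a log axis (points, mean of 3 dishes; bars, SD; marker, p53 construct). SLIRP stands apart at 1248 to 1309 CPM per kb, and POLG is lowest at 11.7 to 13.0 CPM per kb.

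For each member called against WT, the gene with the most similar pattern over the 9 libraries was sought among 12655 genes by Pearson r of log2 CPM. These were FERMT2 for TFB2M (r = 0.995), HMGCS1 for LRPPRC (0.997), PWP2 for TUFM (0.996), NKRF for POLRMT (0.99), ARIH1 for TWNK (0.988), NOL6 for POLG (0.987), H2AC4 for SLIRP (0.978) and RPL30 for GFM1 (0.976). None is a gene of the mitochondrial lists. The libraries share 3 groups and their depth, so each r describes the steps between groups together with the variation within them.

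The 10 genes were read beside 72 other nuclear factors of the same system, arranged by role. Of these, 26 rose and 4 fell in G245S, and 33 rose and 4 fell in R273H, with median log2 fold changes of 0.087 and 0.11. The higher calls are 36.1% and 45.8% of the 72, against 12.6% and 14.2% of all genes. Among genes averaging 100 or more counts, as all 72 do, 17.3% and 18.5% were higher. The lower calls compare with 12.1% and 14.6% of all genes. Between mutants edgeR, DESeq2 and limma-voom called 0 of the 72 (6 higher and 10 lower at an unadjusted p under 0.05 by edgeR). RNA processing and decay, the longest list, held the largest number of higher calls (61.1% of its genes in G245S and 72.2% in R273H), although the share in G245S was larger in transcription (66.7%). Factors that copy DNA stayed near 0 in the median. The lists were drawn up with earlier results of these data known, and the plot of the lists shows every gene.

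**Figure D5:**
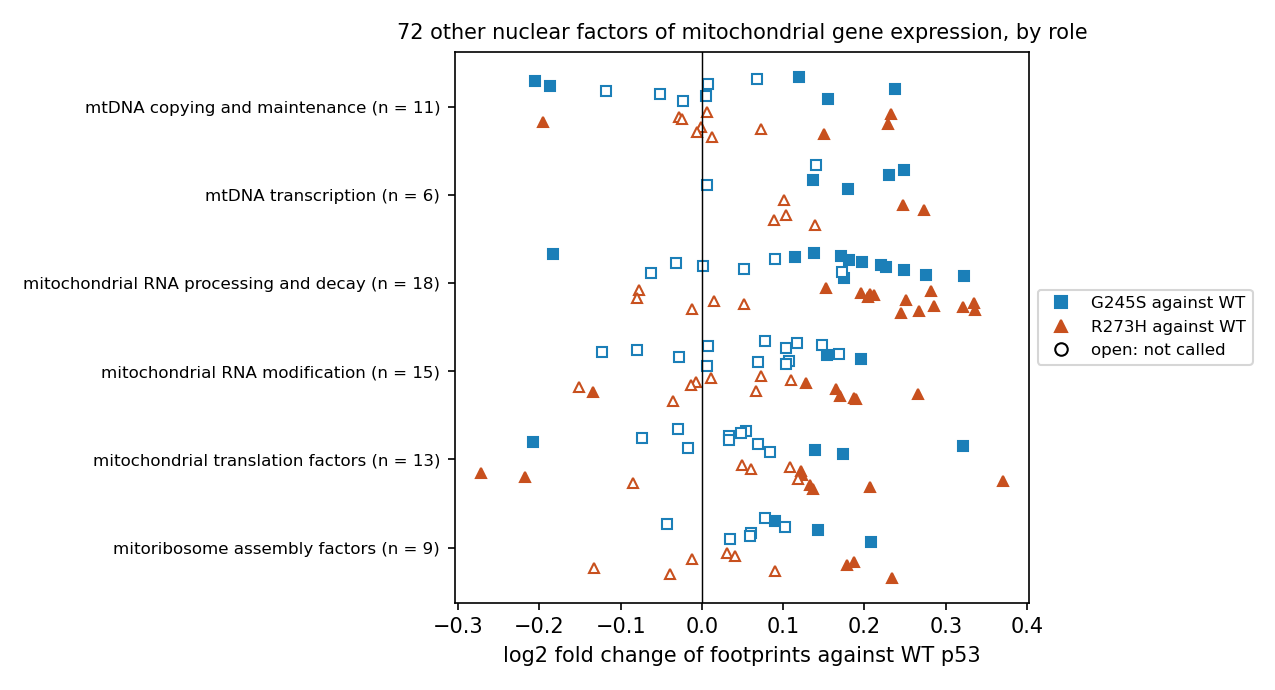
Log2 fold change of footprints against WT for the 72 other factors, arranged by role (points, genes; open points, not called; colour and marker, mutant). In RNA processing and decay 11 and 13 of 18 genes are filled on the right, and DNA copying is spread to both sides of 0.

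In RNA processing and decay, 11 of 18 factors rose in G245S (median 0.17) and 13 in R273H (0.21). SUPV3L1, the helicase of the mitochondrial RNA degradosome, went from 67.0 CPM in WT to 81.1 and 84.5 CPM (log2 fold change 0.28, adjusted p = 4.4e-06, and 0.34, adjusted p = 9.6e-08). PNPT1, the exonuclease that works with it, went from 93.3 to 109 and 118 CPM (0.23, adjusted p = 2.3e-05, and 0.33, adjusted p = 2.1e-08). Both parts of the degradosome thus rose with LRPPRC, which is known to shield mRNAs from decay. TBRG4, of the FASTK family of RNA-binding proteins, rose by 0.32 (adjusted p = 2.1e-08) and 0.27 (adjusted p = 4e-07). FASTK itself fell in G245S (-0.18, adjusted p = 0.0327) and had -0.077 in R273H (adjusted p = 0.372).

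Among 6 factors of transcription, 4 rose in G245S (66.7%) and 2 in R273H (33.3%), with medians of 0.16 and 0.12. Genes averaging 100 or more counts were called higher in 17.3% and 18.5% of cases. MTERF3, a regulator of transcription and ribosome assembly, rose by 0.23 (adjusted p = 0.00217) and 0.27 (adjusted p = 0.00022), and MTERF2 by 0.25 in both (adjusted p = 0.0361 and 0.0281). Of 11 factors that copy or maintain the DNA, 3 rose and 2 fell in G245S, and 3 rose and 1 fell in R273H (medians 0.005 and 0.0061). The higher calls are 27.3% of this short list in each mutant, against the same 17.3% and 18.5%. Lower calls compare with 12.1% and 14.6% of all genes. POLG2, the accessory subunit of POLG, rose from 15.5 to 18.3 and 18.2 CPM (0.24, adjusted p = 0.0424, and 0.23, adjusted p = 0.0388). MGME1, an exonuclease that trims DNA ends, went the other way, from 77.5 CPM to 68.1 and 67.7 CPM (-0.19, adjusted p = 0.0006, and -0.20, adjusted p = 0.00023). TOP1MT, the mitochondrial topoisomerase, rose by 0.16 and 0.15 (adjusted p = 0.0393 and 0.0368). The nuclease-helicase DNA2 rose in R273H (0.23, adjusted p = 0.0012; G245S 0.068, adjusted p = 0.4), and the exonuclease EXOG fell in G245S (-0.21, adjusted p = 0.0261; R273H -0.028, adjusted p = 0.793).

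Of 13 translation factors, 3 rose and 1 fell in G245S, and 6 rose and 2 fell in R273H (medians 0.048 and 0.12). The higher calls are 23.1% and 46.2% of the list, against 17.3% and 18.5% of genes averaging 100 or more counts. Lower calls compare with 12.1% and 14.6% of all genes. TSFM, the partner of TUFM, rose from 126 to 143 and 139 CPM (0.17, adjusted p = 7e-05, and 0.14, adjusted p = 0.00081). MTRF1L, a release factor, rose from 13.6 to 17.0 and 17.6 CPM (0.32, adjusted p = 0.0032, and 0.37, adjusted p = 0.00047). The initiation factor MTIF3 fell from 26.1 to 22.5 and 22.4 CPM (-0.21, adjusted p = 0.0346, and -0.22, adjusted p = 0.0198), whereas MTIF2, the other initiation factor, rose in R273H (0.12, adjusted p = 0.0171; G245S 0.033) and is named after its values were seen. MTFMT, which formylates the initiator tRNA, fell in R273H (-0.27, adjusted p = 0.0116; G245S -0.073, adjusted p = 0.566), and RMND1, needed for mitochondrial translation, rose there (0.21, adjusted p = 0.0061; G245S 0.084, adjusted p = 0.319).

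Of 15 RNA modification factors, 2 rose in G245S (median 0.10), and in R273H 6 rose and 1 fell (median 0.073). The G245S share of 13.3% was near the 12.6% of all genes and below the 17.3% of those averaging 100 or more counts. The R273H share was 40%, against 14.2% and 18.5%. The pseudouridine synthase RPUSD4 rose by 0.20 (adjusted p = 0.0092) and 0.27 (adjusted p = 0.00034). PUS1, another, rose in G245S (0.15, adjusted p = 0.00454; R273H 0.066, adjusted p = 0.216), and the tRNA thiolase TRMU in R273H (0.19, adjusted p = 0.00172; G245S 0.10, adjusted p = 0.102). RPUSD3 fell in R273H (-0.13, adjusted p = 0.00617; G245S -0.029, adjusted p = 0.631). Of 9 assembly factors of the mitochondrial ribosome, 3 rose in each mutant (33.3%, medians 0.077 and 0.041). Among genes averaging 100 or more counts, 17.3% were higher in G245S and 18.5% in R273H. NOA1, a GTPase of ribosome assembly, rose by 0.21 (adjusted p = 0.00418) and 0.23 (adjusted p = 0.00089). MALSU1, which keeps the subunits apart during assembly, rose by 0.14 (adjusted p = 0.0118) and 0.18 (adjusted p = 0.00125), and GTPBP10, another assembly GTPase, rose in R273H (0.19, adjusted p = 0.00076; G245S 0.10, adjusted p = 0.0721).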

How the data were processed

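Ribo-seq libraries of 3 groups of HEK293T cells, with 3 dishes each, were analysed from a table of expected counts per gene that the authors deposited. The labels and methods name Trim Galore, cutadapt, UMI-tools, SortMeRNA (removal of rRNA) and STAR with GRCh38. The counting tool, the annotation, the strand setting and the regions counted are not given in the sources used here. Between 61.5% and 63.7% of nonzero values in a library were not whole, and how reads matching several genes were assigned is not given either. Of 63241 identifiers, 62666 (99.09%) matched GENCODE v44 (GRCh38), which gave coordinates and coding lengths.

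Expected counts were rounded and tested in R 4.3.3 with edgeR 4.0.16 (TMM, filterByExpr, robust glmQLFit, glmQLFTest, two-sided), with group as the only term over 9 libraries (6 residual degrees of freedom). Calls required an adjusted p (Benjamini-Hochberg) under 0.05. CPM used TMM-scaled library sizes, with factors of 0.987 to 1.01. The libraries held 18.7 to 24.6 M counts, and the common biological coefficient of variation was 2.58%. Ratios of genes were compared by exact permutation over dishes. Dish numbers were not taken as pairs in the main fit, since the paper's methods name no covariate for the Ribo-seq. Same-numbered dishes did share part of their deviations from the group means. These correlated at over 0.1 in 4 of 9 same-numbered pairs, and best with their own number in 17 of 18 cases. A fit with dish number as a block is therefore among the alternatives. The code was tested on simulated data.

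Alternatives were other scalings, filters, DESeq2 1.42.0, limma 3.58.1 (voom), glmTreat at a minimum fold of 1.2, dish as a block, removal of each library's trend in GC content and coding length, and each dish left out. The members, lists and ratios were chosen with earlier results of these data known. All members were named. Of the other lists, up to 2 genes with the largest called change in each direction, list and mutant were named, at a mean count of at least 100. CDKN1A, MDM2 and MT-CO1 were added, as was the most similar gene of each called member.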

Additional observations from a re-analysis of the deposited data

Results flagged for a closer look

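MT-CO1, the mitochondrial mRNA on which TACO1 acts, differed between the mutants. Its log2 difference of G245S against R273H was 0.11 ± 0.023 (SE, edgeR adjusted p = 0.00763), with means of 642 and 596 CPM. MT-CO1 was not alone in this. Of the 13 mitochondrially encoded protein genes, 4 were called higher in G245S than in R273H and 0 lower, against 1.86% and 0.732% of all genes. The median log2 difference of the 13 was 0.094 and the highest 0.13, above that of MT-CO1. No alternative setting is given here for these 13 genes. The correlation of library deviation with GC content was -0.18 to 0.34 in G245S and -0.42 to -0.14 in R273H. Its part in these differences was not tested. For MT-CO1, both mutants were below WT in the mean. TACO1 itself differed by 0.024 between the mutants (adjusted p = 0.809).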

How the results depend on the processing

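POLRMT, TFB2M, TWNK, LRPPRC and TUFM in G245S, and these without LRPPRC and with GFM1 in R273H, were called in 21 of 22 alternatives, and LRPPRC in R273H in all 22. The exception was glmTreat at a minimum fold of 1.2, which called 0 members in G245S (1, LRPPRC, at an unadjusted p under 0.05) and 1 (LRPPRC) in R273H. With each dish left out, 5 to 7 members were called in G245S and 6 to 7 in R273H. Between mutants, 0 were called in the main analysis and in each fit with a dish left out. With the third dish of every group left out, a choice made after seeing the data because chi-square per degree of freedom of dish pairs was 1.88 to 2.62 with that dish and 1.48 to 1.56 without it, 1 was called (LRPPRC). The replicate block called 1 (GFM1, -0.094, adjusted p = 0.0264), and the block with the length and GC trend removed called 1 (SLIRP, 0.062, adjusted p = 0.0328). Same-numbered dishes correlated at 0.0419 to 0.228 in their deviations, over 0.1 in 4 of 9 pairs, and best with their own number in 17 of 18 cases. The block raised calls over all genes from 4900 to 5779 (G245S), from 5707 to 6547 (R273H) and from 513 to 1262 (between mutants), and called TFAM lower in G245S (adjusted p = 0.0492) and POLG higher in R273H (0.11, adjusted p = 0.0429). Small differences between mutants turned sign with the trend removed, without and with the block: TFAM to 0.0301 and 0.0299, POLRMT to -0.041 and -0.041, TFB2M to 0.027 and 0.027, LRPPRC to 0.0027 and 0.0023, and TACO1 to -0.000291 and -0.000404. With a dish left out, TFAM ran from -0.034 to 0.029, POLRMT from -0.023 to 0.054 and TFB2M from -0.044 to 0.032. The cause was not tested. DESeq2 called 3052, 3573 and 325 of all genes and glmTreat 547, 693 and 3. Between mutants the trend with the block gave 803, the third dish left out 1026, and single dishes left out 162 to 712. Of the 72 other factors, DESeq2 called 17 higher and 1 lower in G245S and 24 and 2 in R273H, and glmTreat called 0 (1 and 3 at an unadjusted p under 0.05). With a dish left out, 20 to 26 were higher and 1 to 4 lower in G245S. The lower count was 1 without G245S dish 1, and 2 whichever single WT dish was left out. In R273H, 24 to 33 were higher and 2 to 6 lower (2 without R273H dish 3, 6 without WT dish 3). The SLIRP and POLG calls in G245S were lost when some single dishes were left out.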
